A study of Mus musculus with 8 samples.

Results

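Ifi204, Ifi211 and Zbp1 are nucleic acid sensors or members of sensor families whose genes respond to interferon, and their transcripts were followed in single neutrophils taken from the peripheral blood (PB) or the bone marrow (BM) of mice after PBS or lipopolysaccharide (LPS), a cell wall component of Gram-negative bacteria. The members were taken by name, 3 of the 10970 genes in the count table, in all 4 groups, per plate and per cell. Neutrophils came from young adult male C57BL/6J mice with no engineered allele named in the labels. PBS-primed mice received PBS into the peritoneum, and LPS-primed mice received 0.5 mg/kg LPS by the same route. The labels give the PBS samples as 0 h and the LPS samples as 4 h, whereas the study's methods describe collection 4 h after either injection. Neutrophils were enriched with a commercial kit, picked singly by mouth pipette and sequenced by SCRB-seq, a plate method that tags the 3' end of each transcript with a unique molecular identifier (UMI). The labels do not say how many mice stand behind a sample, so p-values measure the spread between samples only.

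IFI204 and IFI211 belong to the PYHIN family, whose genes lie in a cluster on mouse chromosome 1 and whose proteins join a pyrin domain to HIN domains that bind double-stranded DNA. IFI204 is known to pass the sensing of cytosolic DNA on to STING and type I interferon. ZBP1 binds nucleic acid in the left-handed Z form and recruits RIPK3 and RIPK1, which can drive inflammatory cell death. All 3 are known interferon-stimulated genes, and endotoxin is known to induce type I interferon.

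On the mm9 build used for the counts, Ifi204 is annotated in GENCODE M1 at chr1:175677424-175697050 on the minus strand, with 10 exons in its longest transcript. Ifi211 is annotated there under its earlier symbol Mnda at chr1:175826486-175843053, also on the minus strand, with 7 exons, and the annotated gene Mndal overlaps it on the same strand. Zbp1 is annotated at chr2:173032113-173044424 on the minus strand, with 7 exons in its longest transcript. All 3 are protein-coding genes. PYHIN genes are close copies of each other, which bears on counts of uniquely mapped reads. Of the 50-base windows of the longest coding transcript, 78.6% for Ifi211 also occurred in transcripts of other genes, 48.3% in Ifi205 and 32.5% in Ifi204. The share for Ifi204 was 28.9% and for Zbp1 it was 0%. Of the last 500 windows, the end that SCRB-seq reads, 407 (81.4%) were shared for Ifi211 and 0 for Ifi204. The level of Ifi211 is therefore the least certain of the 3, because reads that lie wholly in shared stretches need not map uniquely. How the reads mapped was not examined.

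The interferon-stimulated response element (ISRE) was searched as GAAA, any 2 bases (NN) and GAAA, on both strands of the 250 bases before each RefSeq start on the GRCm38.p6 build. It occurred in 978 of 32851 promoters (2.98%). A promoter was found in the RefSeq table for 1 of the 3 genes, Ifi211, and Ifi204 and Zbp1 were not matched. The Ifi211 promoter at chr1:173913047-173913296, minus strand, held 1 match, GAAATTGAAA, which begins 37 bases before the start. It is shown in full, 5' to 3', with the match in capitals.
Ifi211: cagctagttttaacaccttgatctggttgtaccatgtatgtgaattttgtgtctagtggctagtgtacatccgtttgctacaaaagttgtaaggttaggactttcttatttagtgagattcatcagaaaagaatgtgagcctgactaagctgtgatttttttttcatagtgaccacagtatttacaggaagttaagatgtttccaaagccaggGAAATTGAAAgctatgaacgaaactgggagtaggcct

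Of the 9 other PYHIN genes in the count table, all had a promoter in the RefSeq table and 7 held the ISRE letters in at least 1 promoter. The 50 bases around the match in Ifi211 and in 4 neighbours of the cluster are set under each other, with the match in capitals, so that the flanking letters can be compared between genes.
Ifi211, chr1:173913054-173913103, minus strand: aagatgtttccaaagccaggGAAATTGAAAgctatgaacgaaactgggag
Ifi205, chr1:174031860-174031909, minus strand: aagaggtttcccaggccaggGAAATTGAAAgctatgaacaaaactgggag
Ifi207, chr1:173741821-173741870, minus strand: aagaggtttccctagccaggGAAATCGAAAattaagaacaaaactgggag
Mndal, chr1:173880194-173880243, minus strand: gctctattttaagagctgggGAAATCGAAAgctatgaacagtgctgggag
Ifi208, chr1:173673587-173673636, plus strand: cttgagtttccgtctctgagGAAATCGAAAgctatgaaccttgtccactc
Ifi209 and Aim2 held no match in this window. A match is a run of letters and not a measured binding site.

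The table held 1421 cells. Of these, 711 cells of batch 7, as the cells' names have it, belonged to the 8 labelled samples, 2 for each group with 83 to 92 cells each. The other 710 cells, of batch 6, lay on 9 plates whose names give a group but no sample: 2 plates of PBS-primed PB, 2 of LPS-primed PB, 4 of PBS-primed BM and 1 of LPS-primed BM. Tests used the 8 samples, and the plates are given as pooled values beside them. Libraries held 3240559 to 12020616 UMIs. The summed level of the 12 neutrophil markers was 289689 to 441034 counts per 1000000 UMIs (CPM) in LPS-primed PB and both BM groups but 123079 to 184025 in PBS-primed PB, and 290 cells held at least 2000 CPM of markers of another cell type. Their part in the results was not tested, and fits without those cells are given where they matter.

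LPS raised all 3 transcripts in PB neutrophils. Levels are in CPM, the UMIs of a gene per 1000000 UMIs of its library. Ifi204, the most abundant of the 3, stood at 90.04 and 79.6 CPM in PB after PBS and at 1674 and 2066 CPM after LPS. The batch 6 plates held 473 and 251 after PBS and 1306 and 1728 after LPS. Both LPS values lay above both PBS values in each batch, although resting blood of batch 6 was higher than that of batch 7. The fitted log2 fold change was 5.38 ± 0.45 (SE, 2 samples a group, adjusted p = 5.31e-05, edgeR), and 4.44 with both batches in the model and batch as a term, still called.

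Ifi211 had 2.18 and 14.8 CPM in PBS-primed PB and 525 and 446 in LPS-primed PB. On the plates it had 13.8 and 25.3 after PBS and 419 and 538 after LPS. The groups did not overlap in either batch, and the 2 resting samples, with 11 and 48 UMIs in all, differed most from each other. The log2 fold change was 6.79 ± 1.52 (adjusted p = 0.033, edgeR), which is the largest estimate of the 3 with the widest error. The call was lost without either PBS-primed PB sample (adjusted p = 0.25 and 0.138) and with library size in place of TMM scaling (5.86, adjusted p = 0.0522).

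Zbp1 was found at 16.3 and 46.3 CPM in PBS-primed PB and at 258 and 432 in LPS-primed PB. Plates gave 10.7 and 28.3 after PBS and 317 and 283 after LPS. Again every LPS library exceeded every PBS library. The share of all genes that separate in this way is not given here, nor for Ifi204 and Ifi211. The log2 fold change was 4.40 ± 0.64 (adjusted p = 0.00251, edgeR).

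All 3 genes were thus called higher in LPS-primed PB, where edgeR called 3.47% of the 8478 genes tested higher and 3.94% in either direction. Fold changes are on the TMM scale, which sets the median gene of this comparison at -0.11, against -1.02 when libraries are scaled by their totals alone. With totals alone the log2 fold changes were 4.46 for Ifi204 and 3.46 for Zbp1, both still called. Without the cells that carried other cell types' markers they were 5.37 for Ifi204, 8.12 for Ifi211 and 5.74 for Zbp1, all called (adjusted p at most 0.0167).

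**Figure D1:**
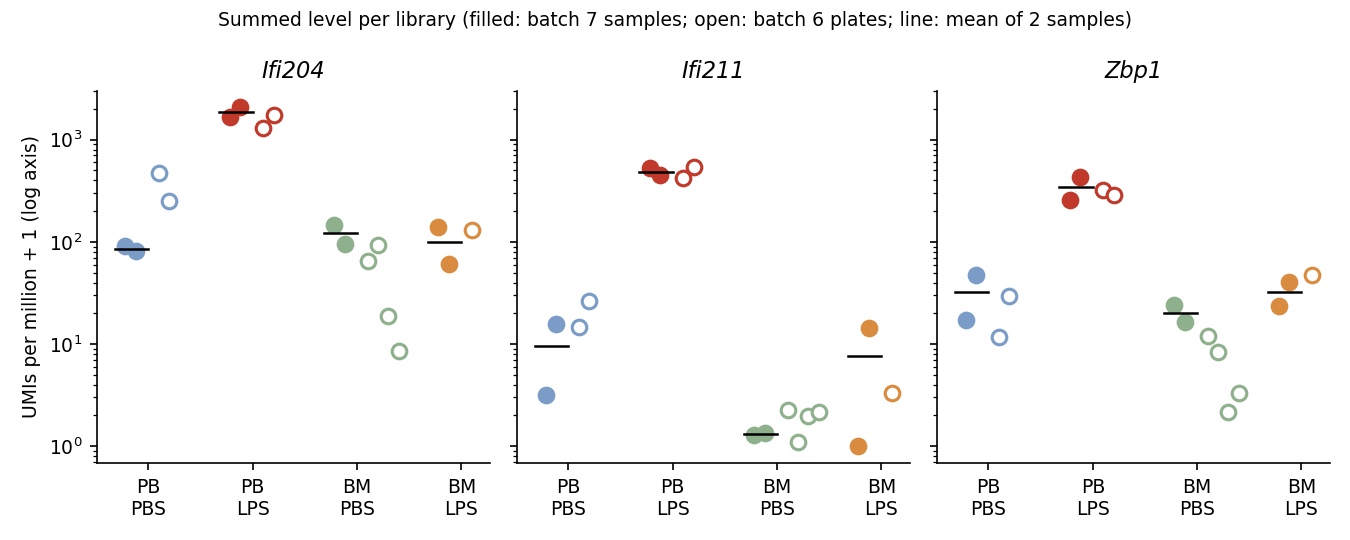
Summed level of each gene in every library, in CPM plus 1 on a log axis, by tissue and treatment. Filled points are the 8 samples of batch 7, open points the 9 plates of batch 6 and lines the means of 2 samples. The LPS-primed PB libraries stand above all other libraries for each gene, and the lowest of them for Ifi204 is at 1306.

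In BM neutrophils the same injection moved none of the 3 past the threshold. Ifi204 was measured at 145 and 95.2 CPM in PBS-primed BM and at 139.9 and 59.2 in LPS-primed BM. The 4 resting plates ranged from 7.51 to 92.6, with the middle pair at 18.01 and 63.3, and the LPS plate gave 129. Sample ranges overlapped, and the log2 fold change was -0.46 ± 0.37 (adjusted p = 0.851, edgeR).

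Zbp1 in BM gave 22.9 and 15.4 after PBS and 22.5 and 39.6 after LPS. The resting plates held 1.17 to 10.9 and the LPS plate 46.6. The samples overlapped, whereas the single LPS plate lay above every resting plate. The log2 fold change was 0.52 ± 0.56 (adjusted p = 0.944, edgeR), and with both batches in the model and batch as a term it was 1.27 (adjusted p = 0.551).

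Ifi211 was close to absent from BM. The PBS-primed BM samples held 2 and 3 UMIs, 0.287 and 0.359 CPM, and the resting plates 0.0991 to 1.25 CPM. LPS-primed BM replicate 1 held 0 UMIs among 7762592, and replicate 2 held 109, or 13.3 CPM. Of these 109, 97.2% came from 2 cells, 1 with 84 UMIs that the deposited clustering places in the cluster of LPS-primed blood (cluster 2) and 1 with 22. The LPS plate held 2.30 CPM. The fitted log2 fold change of 4.10 ± 1.61 (adjusted p = 0.608, edgeR) turned to -4.16 without replicate 2. Of all genes tested, 0.0708% were called for LPS in BM, and 8.07% had an unadjusted p under 0.05, as did Ifi211 (0.0272, edgeR) among the 3. DESeq2 and limma also called 0 of the 3, where they called 196 and 10 of all genes tested.

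Whether LPS acted unequally on the compartments was tested as an interaction, the PB effect minus the BM effect. It was 5.84 ± 0.56 on the log2 scale for Ifi204 (adjusted p = 0.000295, edgeR) and 3.88 ± 0.82 for Zbp1 (adjusted p = 0.0448), beside 1.5% of all genes called. For Ifi211 it was 2.68 ± 2.29 (adjusted p = 0.697), and it passed only when LPS-primed BM replicate 2 was left out (10.95, adjusted p = 0.022). The Ifi204 call held in every alternative tried. The Zbp1 call lay close to the threshold and was lost without PBS-primed PB replicate 1, LPS-primed PB replicate 2, PBS-primed BM replicate 1 or either LPS-primed BM sample, which gave adjusted p-values of 0.0773 to 0.234, and with library size alone (2.77, adjusted p = 0.166).

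After LPS, PB exceeded BM for all 3 genes, with log2 differences of 4.82 ± 0.43 for Ifi204 (adjusted p = 0.000142, edgeR), 6.75 ± 1.51 for Ifi211 (adjusted p = 0.032) and 4.06 ± 0.63 for Zbp1 (adjusted p = 0.00383), where 3.73% of genes were called. After PBS edgeR called 0 of the 3, where 2.61% of genes were called, and 2 of the 3 had an unadjusted p under 0.05, as did 18.5% of genes. Ifi204 was -1.01 ± 0.38 (adjusted p = 0.215), Ifi211 4.07 ± 1.63 (adjusted p = 0.22) and Zbp1 0.18 ± 0.57 (adjusted p = 0.928). The batch 6 plates had the opposite order for Ifi204, with 473 and 251 CPM in resting PB and 7.51 to 92.6 in resting BM. These comparisons share samples with those of LPS and are not independent of them.

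**Figure D2:**
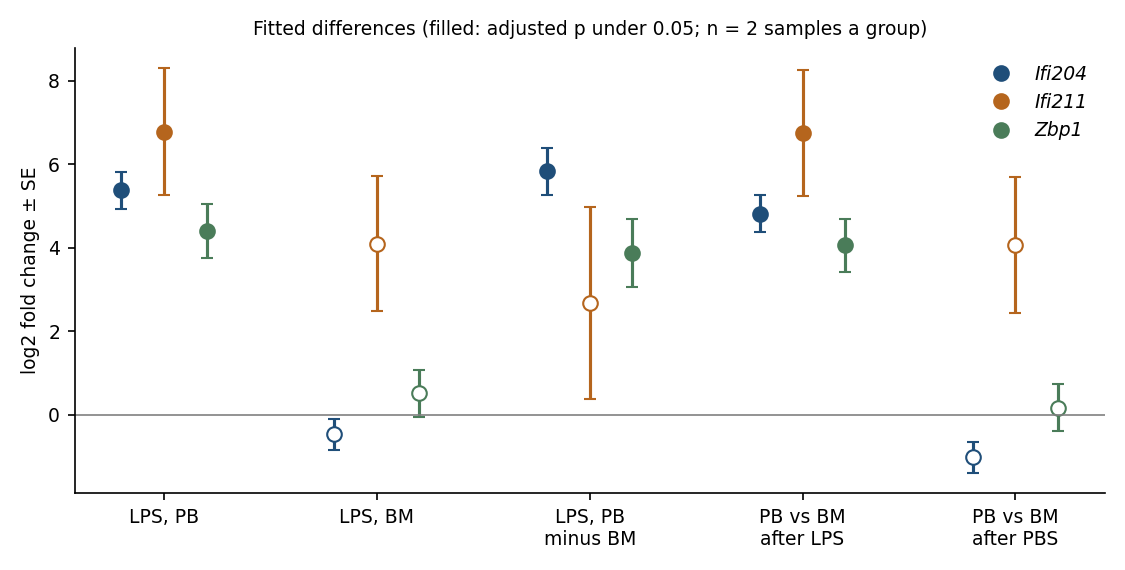
Fitted log2 fold changes with standard errors for the 5 comparisons, 2 samples a group. Filled points passed an adjusted p under 0.05. Ifi204, at 5.38 in PB and -0.46 in BM, shows the narrowest errors, and Ifi211 the widest in all 5 comparisons.

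In group means the order of levels differed between genes. Ifi204 averaged 1869.9 ± 278 CPM in PB after LPS, then 119.9 ± 35.0 in resting BM, 99.6 ± 57.1 in BM after LPS and 84.8 ± 7.37 in resting PB (SD, n = 2). Resting BM was not called different from BM after LPS or from resting PB for Ifi204. Both resting PB samples (90.04 and 79.6) lay below both resting BM samples (145 and 95.2). The unadjusted p was 0.021 (edgeR), where 18.5% of genes were under 0.05. On the batch 6 plates resting PB, at 473 and 251, lay above BM after PBS (7.51 to 92.6) and after LPS (129). Ifi211 averaged 486 ± 55.8 in PB after LPS, then 8.50 ± 8.93 in resting PB, 6.63 ± 9.37 in BM after LPS and 0.323 ± 0.0509 in resting BM. Zbp1 averaged 345 ± 122 in PB after LPS, then 31.3 ± 21.2 in resting PB, 31.1 ± 12.1 in BM after LPS and 19.2 ± 5.32 in resting BM. For these genes too, LPS-primed PB stood clear of the others. For Ifi211, resting PB also lay above resting BM in both batches, although the difference was not called. The share of all genes that do so is not given here. The samples held 2.18 and 14.8 against 0.287 and 0.359 CPM, and the plates 13.8 and 25.3 against 0.0991 to 1.25. The levels are counts of 3' tags with no division by transcript length.

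The share of cells with at least 1 UMI was read after each cell was thinned to 5000 UMIs, because depth differed between libraries. At this depth Ifi204 was detected in 78.0% (95% Clopper-Pearson interval 68.1 to 86.0) and 83.7% (74.2 to 90.8) of cells in the LPS-primed PB samples. The shares were 13.3% and 19.8% in resting PB, 7.23% and 16.3% in resting BM and 16.5% and 15.2% in BM after LPS. At full depth the shares outside LPS-primed PB were larger, 54.4% and 48.8% in resting PB, 32.5% and 50% in resting BM and 56.0% and 39.1% in BM after LPS, against 96.7% and 98.8% in LPS-primed PB. Ifi204 reached 89.5% and 86.8% on the LPS-primed PB plates and 29.5% and 26.2% on the resting PB plates.

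Ifi211 was detected in 51.6% (40.9 to 62.3) and 51.2% (40.1 to 62.1) of thinned LPS-primed PB cells. In resting PB it was seen in 3.33% and 5.81%. In BM it was seen in 0 of 83 and 0 of 92 PBS-primed cells, which allows shares of cells with a UMI at this depth of up to 3.61% and 3.26% (3 counts of the total), and in 0 of 91 and 1 of 92 LPS-primed cells. At full depth 2.41% and 3.26% of the PBS-primed BM cells had a UMI. The plates gave 57.9% and 67.0% in LPS-primed PB and at most 2.38% in BM.

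Zbp1 was detected in 38.5% (28.4 to 49.2) and 41.9% (31.3 to 53.0) of thinned LPS-primed PB cells and in 2.22% and 4.65% of resting PB cells. BM samples had 2.41% and 4.35% after PBS and 5.49% and 6.52% after LPS, and their intervals overlapped. On the LPS-primed PB plates the shares were 55.8% and 54.9%. Intervals cover counting error only. Without thinning, the mean share in LPS-primed PB samples was 83.1% for Ifi211 and 79.1% for Zbp1, against 11.9% and 15.97% in resting PB.

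At full depth Zbp1 was also seen more often in BM after LPS. It had a UMI in 22.0% and 27.2% of LPS-primed BM cells and in 7.23% and 13.04% of PBS-primed BM cells. The LPS plate had 58.0% and the 4 resting plates 8.89% to 16.5%. The LPS libraries lay above the PBS libraries in both batches, and the share of all genes that do so is not given here. In batch 7 both LPS-primed BM samples were also deeper, with medians of 76133 and 69483.5 UMIs per cell against 49892 and 63846.5. On the BM plates the median was 65475 after LPS and 61088.5 to 89393 after PBS. When cells were thinned to 20000 UMIs the shares were 11.1% and 17.3% after LPS and 4.69% and 4.0% after PBS. The difference in shares was not tested. The log2 fold change of the summed level in BM was 0.52 in the fit of all cells. It was 2.43 without the 2 highest Zbp1 cells of each sample (adjusted p = 0.543 and 0.0102 before adjustment, edgeR). Those cells were chosen by Zbp1 itself and held 96.3% and 80.6% of its UMIs after PBS against 62.9% and 59.8% after LPS. Leaving them out by itself raises the estimate, so it cannot show a rise.

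**Figure D3:**
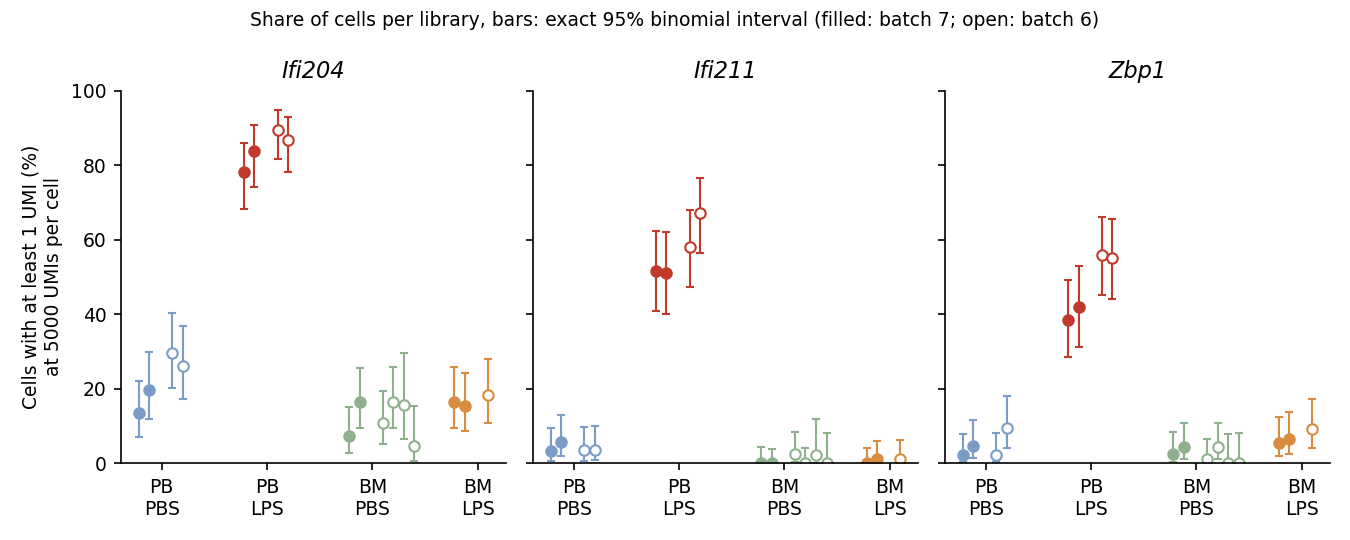
Percent of cells with at least 1 UMI of each gene after thinning every cell to 5000 UMIs, per library. Bars are exact 95% binomial intervals. LPS-primed PB libraries lie at 78.0% or above for Ifi204, from 51.2% to 67.0% for Ifi211 and from 38.5% to 55.8% for Zbp1, apart from all others.

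Outside LPS-primed PB, a few cells held most of the transcripts of Zbp1. The 2 highest cells of a sample held 87.8% and 84.0% of its Zbp1 UMIs in PBS-primed PB, 96.3% and 80.6% in resting BM and 62.9% and 59.8% in BM after LPS, compared with 26.3% and 27.9% in LPS-primed PB. For example, 1 cell of PBS-primed PB replicate 1 held 70 of 82 UMIs. Ifi211 was as uneven in resting PB replicate 2, where 1 cell held 37 of 48 UMIs. For Ifi204 the range was wide, with 33.3% and 44.6% in the 2 highest cells of the resting PB samples and 18.3% and 20.6% in LPS-primed PB, although they held 64.6% and 33.5% in resting BM, 32.0% and 38.8% in BM after LPS and 60.7% on the second resting PB plate. When the 2 highest cells of each sample were left out, the log2 fold changes in PB were 5.81 for Ifi204, 8.29 for Ifi211 and 6.71 for Zbp1, all called. This takes a larger share of the UMIs from resting than from LPS-primed PB for Ifi204 and Zbp1. For Ifi211 it took 18.2% and 81.25% from the resting PB samples and 20.1% and 26.1% from the LPS-primed ones. A larger share taken from resting samples by itself raises the fold change. In BM the log2 fold changes without these cells were -0.01, 1.13 and 2.43, none called. The difference between PB and BM for Zbp1 was no longer called (4.28, adjusted p = 0.122, edgeR).

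Some of these cells carried monocyte markers. The highest Ifi211 cells of the resting PB plates, with 51 and 120 UMIs, had 14560 and 9564 CPM of monocyte or macrophage markers and 19143 and 6105 of neutrophil markers. The highest Ifi211 cell of PBS-primed PB replicate 2 had 3919 and 194750. Among Zbp1 cells, the highest of the second resting PB plate had 7857 and 5063, but the cell with 70 UMIs had 32.8 and 202260. The summed monocyte list, whose 8 markers were all in the table, ranged from 306 to 1082 CPM in PBS-primed PB, from 1117 to 1755 in LPS-primed PB and from 684 to 1168 in BM. Cx3cr1 was at 0 in both samples of PBS-primed PB, LPS-primed PB and PBS-primed BM. The LPS effects in PB with such cells left out are those given above, 5.37, 8.12 and 5.74.

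Within LPS-primed PB the cells were not alike. The deposited clustering placed 83 of the 177 batch 7 cells in cluster 1, which also held 174 of the resting PB cells of that batch, 84 in cluster 2 and 10 in cluster 0. Ifi204 had 928 and 1030 CPM in the cluster 1 cells of the 2 samples and 2270 and 2609 in the cluster 2 cells. Ifi211 had 167 and 46.6 in cluster 1 and 807 and 607 in cluster 2. Zbp1 had 75.7 and 111 in cluster 1 and 402 and 576 in cluster 2. All 3 were higher in cluster 2 in both samples, and cluster 2 cells also held more UMIs (median 76896 against 42210). The clusters were made from these same cells, so this is a description with no test.

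LPS-primed cells of cluster 1 were not at resting levels either. Resting PB cells of cluster 1 held 90.2 and 80.8 CPM of Ifi204, 2.18 and 15.2 of Ifi211 and 16.3 and 47.4 of Zbp1. At equal depth, 69.9% of the LPS-primed cluster 1 cells had Ifi204, 32.5% Ifi211 and 21.7% Zbp1, against 16.7%, 4.60% and 3.45% of resting cluster 1 cells. On the batch 6 plates 185 of 186 LPS-primed PB cells were in cluster 2, where they held 1496 CPM of Ifi204, 473 of Ifi211 and 303 of Zbp1, against 2448, 702 and 493 in cluster 2 of batch 7.

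**Figure D4:**
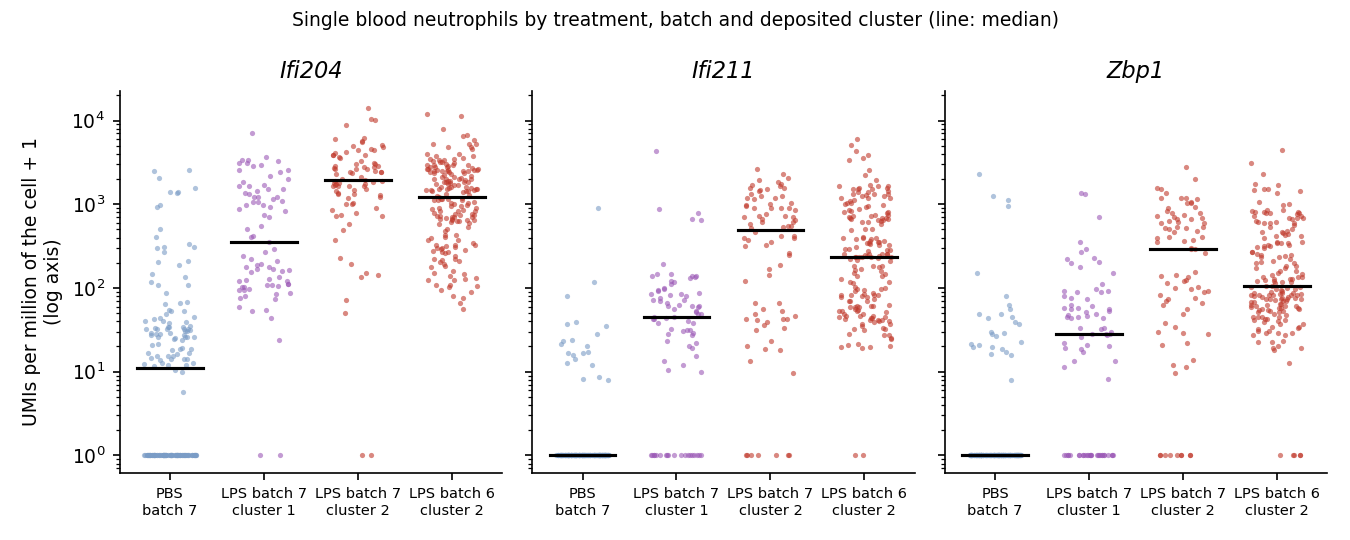
Level of each gene in single PB neutrophils, in CPM of the cell plus 1 on a log axis, by treatment, batch and deposited cluster, with medians as lines. LPS-primed cells of cluster 1 (83 cells) lie between resting cells and LPS-primed cells of cluster 2 (84 cells in batch 7, 185 in batch 6), with a wide spread in each.

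The genes were detected together somewhat more often than the product of their shares in the batch 7 samples, and about as often in batch 6. In the LPS-primed PB samples all 3 had a UMI in 21 of 91 and 20 of 86 thinned cells (23.1% and 23.3%), where the product of the single shares gives 15.5% and 17.9%. None of the 3 had a UMI in 13 and 9 cells (14.3% and 10.5%, products 6.54% and 4.62%). On the plates all 3 were found in 32.6% and 30.8% of cells, with products of 28.9% and 32.0%. No cell of the resting PB or BM samples had all 3 at this depth.

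Rank correlations of the single-cell levels in LPS-primed PB were moderate for the pair of PYHIN genes. Between Ifi204 and Ifi211 Spearman's rho was 0.48 and 0.33 in the samples (91 and 86 cells) and 0.40 and 0.39 on the plates (95 and 91 cells). Between Ifi204 and Zbp1 it was 0.33, 0.06, 0.17 and -0.05, and between Ifi211 and Zbp1 it was 0.24, 0.18, 0.14 and 0.04. Thus Zbp1 was less related to Ifi204 and Ifi211 than these were to each other in each library, with up to 0.33 in replicate 1. With the total UMIs of the cell, rho in the samples was 0.16 and 0.19 for Ifi204, 0.27 and 0.25 for Ifi211. For Zbp1 it was 0.27 and 0.34. On the plates it was -0.17 to 0.11 for these genes. Cells of a library share its depth and amplification, and the 2 PYHIN genes share transcript sequence, so these are descriptions.

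Across the 8 samples, the pattern most like that of Ifi204 on log2(CPM + 1) was that of Samsn1 (Pearson's r = 0.98 over 8 samples), followed by Smpdl3b, Capza2, Cmpk2 and Ifitm3, each at 0.97. Over the 9 plates these 5 gave 0.64 to 0.79, below Ifi211 and Zbp1. Ifi211 was most like Ikbke (0.99), Bcl2a1b, Irgm1, Psme2 and Usp18 (0.96), which gave 0.83 to 0.95 over the plates. Zbp1 was most like Bcl2a1b (0.97), Ikbke, Hdc, Irgm1 and Ddx60 (0.96), which gave 0.71 to 0.85 over the plates. The genes compared were the 3372 tested genes with at least 50 CPM in a group. Among themselves the 3 gave r = 0.96 for Ifi211 with Zbp1, 0.90 for Ifi204 with Zbp1 and 0.82 for Ifi204 with Ifi211, and over the 9 plates 0.88, 0.89 and 0.86. The samples share 4 groups, of which LPS-primed PB was highest for each of the 3, so the 8 points are not independent.

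Of the other PYHIN genes, 9 were in the table and 8 were tested. Ifi207 and Ifi209 rose in PB and none fell, where 3.47% of all genes were called higher. Ifi207 went from 10.5 and 0.926 CPM to 154 and 218 (log2 fold change 5.90 ± 1.21, adjusted p = 0.0209, edgeR). Ifi209 went from 26.8 and 17.9 to 244 and 150.4 (4.04 ± 0.79, adjusted p = 0.0157). Aim2, which forms the DNA-sensing inflammasome, had 25.0 and 20.4 in PBS-primed PB and was at 0 in both LPS-primed PB samples, but it was not called (adjusted p = 0.278). The median log2 fold change of the 8 was 3.12 in PB and 3.02 in BM, and the median of the PB effect minus the BM effect was -1.73. With library size alone edgeR called 0 of the 8 higher, where 140 of the 8478 genes tested were. Between PB and BM after PBS the median log2 difference over the 8 was 6.69, against 0.148 over all genes tested. In that comparison 1 of the 8, Ifi209, was called (6.22 ± 0.98, adjusted p = 0.00645, edgeR), as were 2.61% of all genes.

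Of 20 genes of cytosolic and endosomal sensors and their adaptors, 19 were tested. In PB 4 rose, with a median of 1.32, beside 3.47% of all genes called higher. With library size alone 3 rose, where 140 of the 8478 genes tested did. Trex1, the exonuclease that degrades cytosolic DNA, went from 11.3 and 2.47 CPM to 711 and 736 (log2 fold change 7.58 ± 0.69, adjusted p = 0.000106, edgeR), and its LPS effect also differed from that in BM (7.94, adjusted p = 0.000594). The others were the RIG-I-like receptors Ddx58 (2.99 ± 0.48) and Dhx58 (4.26 ± 0.81) and the dNTP hydrolase Samhd1 (1.32 ± 0.25). Samhd1 was not called with library size alone (0.41, adjusted p = 0.362).

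Several sensors did not pass. Ifih1, which encodes the RNA sensor MDA5, stood at 16.3 and 31.5 CPM after PBS and 291 and 351 after LPS (adjusted p = 0.0508, edgeR). The DNA sensor cGAS, listed as Mb21d1, held 14.5 and 13.9 after PBS and 14.1 and 24.3 after LPS (adjusted p = 0.73). Its adaptor STING, listed as Tmem173, held 31.7 and 18.8 after PBS and 7.96 and 0 after LPS (adjusted p = 0.79). Mavs, the adaptor of the RIG-I-like receptors, was at 13.5 and 0.309 after PBS and 0 and 14.4 after LPS. Thus cGAS, STING and MAVS transcripts were low in all 4 PB samples. Markers of other cell types also differed between these samples. B cell markers summed to 80.1 to 108 CPM after PBS and at most 0.51 after LPS. T cell markers gave 168 to 231 and at most 1.53, and NK cell markers 41.4 to 172 and at most 0.34. Platelet markers gave 288 to 423 and 73.4 to 124. Hepatocyte markers gave 1178 to 1801 and 670 to 698, but at most 0.66 and 1.08 on the batch 6 PB plates. The part of these cell types in the values of Aim2, STING and the other listed genes was not tested.

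Of 10 genes that act with ZBP1 in cell death, 9 were tested. In PB 2 rose, with a median of 0.89, beside 3.47% of all genes called higher. With library size alone 1 rose, where 140 of the 8478 genes tested did. Casp8, the apoptotic protease that cuts RIPK proteins, went from 12.7 and 44.7 CPM to 285 and 246 (4.13 ± 0.73, adjusted p = 0.00898, edgeR). Casp1, the inflammasome protease, went from 106 and 75.9 to 265 and 275 (2.48 ± 0.46, adjusted p = 0.0118), and was not called with library size alone (1.57, adjusted p = 0.0914). Ripk3, the kinase that ZBP1 recruits, held 12.1 and 3.39 after PBS and 0.937 and 0 after LPS (adjusted p = 0.604). Mlkl, which permeabilises the membrane in necroptosis, was at 0 in both PBS samples and at 18.6 and 29.2 after LPS (adjusted p = 0.0929). Neither Ripk3 nor Mlkl was called.

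Of 14 genes of type I interferon production and signalling, all tested, 5 rose in PB, with a median of 1.85, beside 3.47% of all genes called higher. They were the kinase Ikbke (6.20 ± 1.44, SE), Stat2 (4.04 ± 0.54) and Irf9 (2.31 ± 0.50) of the factor that binds the ISRE, the deISGylase Usp18 (3.96 ± 0.62) and the transcription factor Irf7 (3.35 ± 0.41), with adjusted p-values of 0.000784 to 0.0394 in edgeR. With library size alone 3 of the 14 were called higher, where 140 of the 8478 genes tested were. Ikbke (5.27, adjusted p = 0.0714, edgeR) and Irf9 (1.40, adjusted p = 0.141) were then not called. Irf7 went from 182 and 202 CPM to 1047 and 1035. Across the 4 lists none fell in PB and edgeR called 0 in BM, where it called 0.0708% of all genes. Before adjustment 1, 4, 2 and 2 genes of the PYHIN, sensor, cell death and interferon lists were under 0.05 in BM, as were 8.07% of all genes. DESeq2 called 1, 2, 0 and 2 genes of these lists in BM, and 196 of all genes. The largest BM estimate among the named genes was that of Ifi209 (5.35 ± 0.96, adjusted p = 0.114, edgeR). List medians in BM were 3.02 (PYHIN), 0.81 (sensor), 0.99 (cell death) and 0.64 (interferon). The median over all genes tested was -0.11 in PB and 0 in BM. The listed genes were chosen with earlier results of these data known, and Stat2, Irf7 and Trex1 alone were called in each of the 8 fits that left out a sample.

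**Figure D5:**
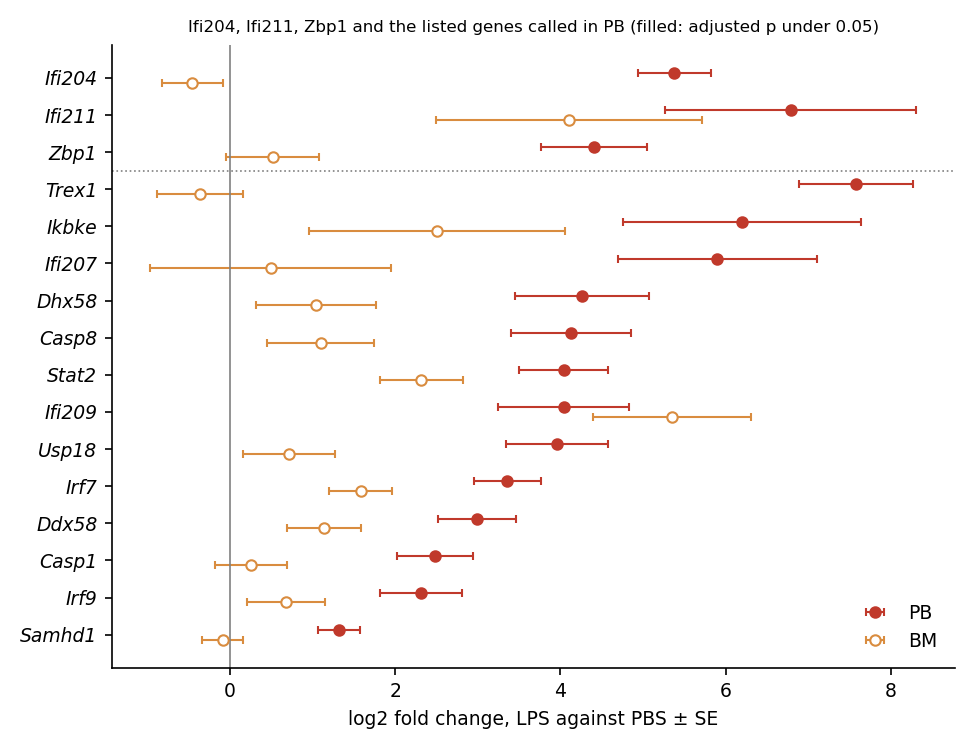
Log2 fold change of LPS against PBS with standard error in PB and BM for Ifi204, Ifi211 and Zbp1 (above the dotted line) and for the 13 listed genes called in PB. Filled points passed an adjusted p under 0.05. All PB estimates are positive, from 1.32 for Samhd1 to 7.58 for Trex1, and no BM estimate passed.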

How the data were processed

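Single neutrophils were sequenced by SCRB-seq. Per the labels and the study's methods, the authors trimmed reads with Cutadapt 1.15, aligned them to mm9 with STAR 2.6.0a, removed duplicate UMIs among uniquely mapped reads and counted with HTSeq 0.11.2, tools and build that the submitters' processing notes also name. The authors deposited raw UMI counts, 1 row a gene and 1 column a cell, and their annotation gives a cluster and an ERCC fraction for each cell. The gene annotation is not given in the sources used here. The 3 members and the gene lists were chosen with earlier results of these data known.

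Genes seen in at least 10 cells (9919) were summed per sample. The 4 groups of 2 samples were fitted with edgeR 4.0.16 (filterByExpr, TMM, quasi-likelihood test, 8478 genes) in R 4.3.3, two-sided, with Benjamini-Hochberg adjustment at 0.05. The common dispersion was 1.06. Shares of cells used cells thinned to 5000 UMIs and 95% exact intervals. Batch 6 cells carry no sample name and entered only as pooled values or with batch as a term. Each plate reuses the same well barcodes (95 distinct), and 0 cells had identical counts. Replicates of a group differed well beyond counting noise (chi-square per degree of freedom 53.3 to 99.6). Fits were tested on simulated counts. Alternatives were DESeq2 1.42.0, limma 3.58.1 (voom), library size alone, no filter, the replicate block, thinning, both batches, leaving out a sample or the highest cells. Named genes were the 3 members, up to 6 called genes of each list with at least 50 CPM by size of change in PB, 8 sensors and partners whatever their value, and the 5 genes most like each member.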

Additional observations from a re-analysis of the deposited data

Results flagged for a closer look

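The LPS effect on Ifi204 differed between PB and BM by the direct test of the difference, 5.84 on the log2 scale (adjusted p = 0.000295, edgeR). Both LPS-primed PB samples stood above both PBS-primed ones while the BM samples overlapped. The share of all genes that do so is not given here. The LPS effect on Zbp1 also differed, by 3.88 (adjusted p = 0.0448, edgeR), close to the threshold, with the values given in the report.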

How the results depend on the processing

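For Ifi204 the PB effect and its difference from BM kept their direction and call in every alternative run, and so did the PB effect of Zbp1. Leaving out 1 sample at a time gave 146 to 400 genes called for LPS in PB, 2 to 28 in BM, 80 to 168 for their difference, 144 to 382 for PB against BM after LPS and 108 to 342 after PBS. The same fits gave -1.21 to 0.026 for Ifi204 in BM, above 0 without LPS-primed BM replicate 2, 5.88 to 8.64 for Ifi211 in PB, -4.16 to 5.07 for Ifi211 in BM, 1.68 to 10.95 for the Ifi211 difference and 3.26 to 4.77 for the Zbp1 difference. DESeq2 called 1057, 196, 500, 951 and 962 genes in these 5 comparisons, where edgeR called 334, 6, 127, 316 and 221. Both batches with batch as a term gave 641, 27, 204, 516 and 408. limma gave 10 genes in BM, 536 for PB against BM after LPS and 370 after PBS. Library size alone gave 10 in BM and 64 for the difference, and in PB it split the calls into 140 higher and 268 lower, against 294 and 40 with TMM. No filter gave 15 in BM, and thinning to 5000 UMIs gave 27. Library size alone also lost the call of Ifi211 in PB (5.86), and the Zbp1 difference lost its call with library size (2.77), limma (4.12) and without the 2 highest cells (4.28). Zbp1 in BM was -0.083 after thinning and 2.43 without the 2 highest cells (adjusted p = 0.543, edgeR), and Ifi211 in BM was 1.13 without them. For Zbp1 this removal takes a larger share of the UMIs from PBS-primed than from LPS-primed BM. The cause was not tested in any of these.

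With the replicate block the log2 fold changes in PB were 5.42 for Ifi204, 7.68 for Ifi211 and 4.46 for Zbp1, no call of the 3 changed, and 13 genes were called in BM. Same-numbered samples did not deviate together (correlations -0.0271 to 0.00518), so they share only a number. Leaving out cells with other cell types' markers was chosen after seeing the data. Depth limits Ifi211 in BM, with 0 to 3 UMIs in 3 of the 4 samples and 109 in LPS-primed BM replicate 2.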
